A study of Mus musculus with 6 samples.

Results

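Sugar digestion and hexose transport in the ileal epithelium was followed through 8 genes: Sis, Mgam, Treh, Lct, Slc5a1, Slc2a5, Slc2a2 and Khk. They were chosen by name for their roles, with earlier results of these data known. All were matched by Ensembl ID among the 22274 genes of the deposited table. In the reference annotation Sis and Slc2a2 lie on chromosome 3, Slc5a1 and Khk on chromosome 5, Lct on 1, Slc2a5 on 4, Mgam on 6 and Treh on 9. RNA was sequenced from epithelial cells isolated from mouse ileum, with 3 libraries of Olfm4∆Ogt mice, called Ogt knockout here, and 3 libraries of Olfm4Ctrl mice, called control. Ogt knockout mice, labelled as an intestinal stem cell-specific knockout, carried floxed Ogt and Olfm4-CreER, a tamoxifen-inducible recombinase under the control of a crypt stem cell gene. Control mice are labelled LoxP, and no Cre driver is named for them in the labels used here, so effects of the recombinase and of losing Ogt cannot be told apart. The labels describe a tamoxifen course of 3 days, begun in offspring of the cross 2 months old and fed chow, with collection on day 10. Ogt encodes O-GlcNAc transferase, which attaches single N-acetylglucosamine sugars to intracellular proteins. The labels do not say whether each library came from a separate animal, so p-values measure only the spread between these libraries.

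Dietary sugars are absorbed mainly in the proximal small intestine, and less in the ileum. Small saccharides are split at the brush border of villus enterocytes by membrane-bound enzymes. Sucrase-isomaltase (Sis) and maltase-glucoamylase (Mgam) release glucose and fructose from sucrose and starch fragments, trehalase (Treh) splits trehalose, and lactase (Lct) splits milk sugar and is highest in the proximal intestine of sucklings. Glucose and galactose enter through the sodium-coupled transporter SGLT1 (Slc5a1) and fructose through GLUT5 (Slc2a5). Sugars leave toward the blood through GLUT2 (Slc2a2), and ketohexokinase (Khk) phosphorylates fructose inside the cell.

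Ogt counts fell in Ogt knockout libraries to 42.5 ± 6.26 CPM (TMM-scaled CPM of estimated counts; mean ± SD, n = 3), against 132 ± 7.21 CPM in control libraries (log2 fold change -1.63 ± 0.13 SE, edgeR adjusted p = 0.00121). The labels used here do not say which exons are deleted, so reads outside the deletion may be counted. Library totals ranged from 14389429 to 18076479 estimated counts. All 12 listed enterocyte genes had counts in every library, as did all listed markers of goblet, Paneth, tuft and enteroendocrine cells. The libraries are bulk samples, so fewer cells of a type and less RNA per cell cannot be told apart.

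None of the 8 genes passed the test between Ogt knockout and control libraries (quasi-likelihood test of edgeR with an adjusted p, by Benjamini and Hochberg over 14005 genes, under 0.05). Over all tested genes 18.7% passed, 9.33% higher and 9.37% lower in Ogt knockout. At an unadjusted p under 0.05 there were 2 of the 8, Slc2a2 and Khk. DESeq2 called the same 2, with Khk higher (11.8% of all genes were called higher by DESeq2) and Slc2a2 lower (11.0% were called lower). The limma voom test called 0 of the 8, against 18.5% of all tested genes in either direction. The log2 fold change was negative for 6 genes and positive for Treh and Khk, and its median over the 8 genes was -0.52, against -0.05 over all tested genes. The CPM ranges of the groups overlapped for all 8 genes, whereas they did not overlap for 39.8% of all tested genes. All 8 had estimated counts within 0.001 of a whole number in every library.

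**Figure D1:**
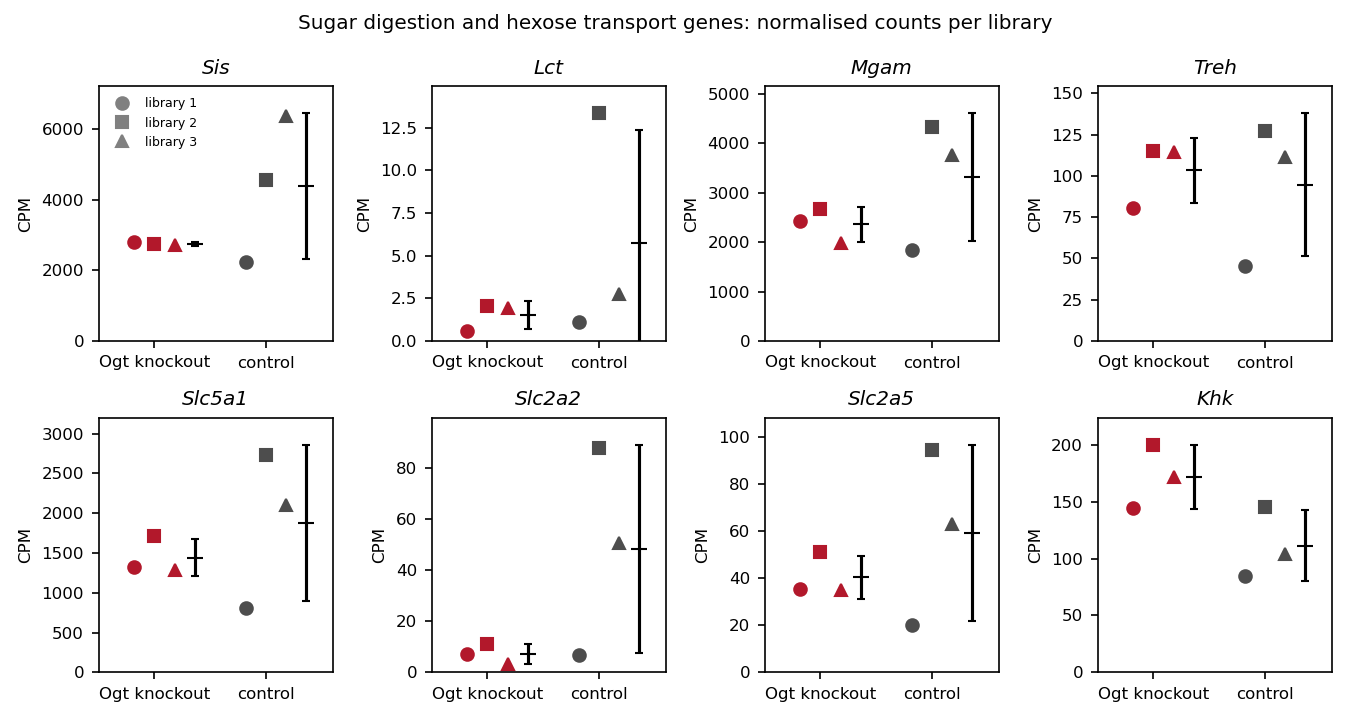
CPM of each of the 8 genes (vertical axis, from 0) in 3 Ogt knockout libraries (red, left) and 3 control libraries (grey, right), with the mean ± SD of each group in black; the lower SD bar of Lct in controls is cut at 0. Control 1, the grey circle, is the lowest control in every panel, at 2230 CPM for Sis and 6.64 CPM for Slc2a2.

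Levels per transcript length, in the deposited FPKM, were highest for Sis and lowest for Lct. In Ogt knockout libraries Sis averaged 484 ± 10.0 FPKM, Mgam 405 ± 66.8, Slc5a1 368 ± 62.0, Khk 124 ± 20.5, Treh 53.7 ± 12.1, Slc2a5 13.5 ± 3.09, Slc2a2 1.72 ± 0.833 and Lct 0.257 ± 0.145 FPKM (SD, n = 3). In control libraries the averages were 697 ± 319 FPKM for Sis, 521 ± 213 for Mgam, 433 ± 222 for Slc5a1, 70.9 ± 17.7 for Khk, 44.4 ± 19.7 for Treh, 17.8 ± 11.1 for Slc2a5, 9.11 ± 7.23 for Slc2a2 and 0.877 ± 1.02 for Lct. The order was the same in both groups. Neighbours differed by less than either SD in Ogt knockout libraries for Mgam and Slc5a1, and in control libraries for Sis, Mgam and Slc5a1. In control libraries Slc2a5 and Slc2a2 differed by less than the SD of Slc2a5 but by more than that of Slc2a2.

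Among the enzymes that split sugars, Sis had 2813, 2733 and 2713 CPM in Ogt knockout libraries 1 to 3, against 2230, 4547 and 6357 CPM in control libraries 1 to 3. The SD was 52.9 CPM in Ogt knockout and 2069 CPM in control libraries. Control 1 lay below all 3 knockout libraries and the other controls above them, and the log2 fold change of -0.67 ± 0.34 (± SE here and below) did not pass the test (adjusted p = 0.207). Mgam, its relative in enzyme family and role, had 2432, 2661 and 1981 CPM in Ogt knockout libraries, against 1850, 4325 and 3756 CPM in control libraries. Again control 1 was the lowest of all 6 libraries, and the fold change of -0.49 ± 0.30 did not pass (adjusted p = 0.293).

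Trehalase differed in pattern: Treh had 80.6, 115 and 114 CPM in Ogt knockout libraries, against 45.5, 127 and 111 CPM in control libraries. Knockout libraries 2 and 3 stood at the level of controls 2 and 3 (fold change 0.13 ± 0.38, adjusted p = 0.839). Lct had few reads, with 8, 37 and 36 counts in Ogt knockout libraries, against 18, 220 and 47 counts in control libraries. Control 2 held most of the control counts, and the fold change of -1.90 ± 0.96 did not pass (adjusted p = 0.217).

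The sequences just upstream of the start sites of 3 of the genes are shown, because transcription factors known to act on the Sis and Lct promoters (Cdx2 and GATA factors) are among those described further on, and because Khk had the smallest adjusted p of the 8. Each is the 250 bases before the RefSeq start site in build GRCm38.p6, which is not the build of the deposited values, 5′ to 3′ on the strand of the gene. The windows are chr3:72967864-72968113 (minus strand) for Sis, chr1:128328319-128328568 (minus strand) for Lct and chr5:30921309-30921558 (plus strand) for Khk. Capitals mark matches, on either strand, to the letters TTTATG, found in sites of CDX factors. They also mark AGATAA, a form of the site recognised by GATA-family zinc finger proteins, whose other forms were not searched. The last is CACGTG, known as an E-box.
Sis: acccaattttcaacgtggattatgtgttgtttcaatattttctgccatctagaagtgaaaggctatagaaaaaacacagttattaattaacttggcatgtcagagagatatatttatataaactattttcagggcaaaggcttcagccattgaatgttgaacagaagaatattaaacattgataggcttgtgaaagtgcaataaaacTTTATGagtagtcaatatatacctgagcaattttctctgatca
Lct: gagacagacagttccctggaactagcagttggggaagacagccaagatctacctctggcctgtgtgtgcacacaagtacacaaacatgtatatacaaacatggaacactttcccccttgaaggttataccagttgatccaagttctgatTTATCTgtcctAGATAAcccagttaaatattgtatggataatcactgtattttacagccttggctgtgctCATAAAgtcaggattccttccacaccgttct
Khk: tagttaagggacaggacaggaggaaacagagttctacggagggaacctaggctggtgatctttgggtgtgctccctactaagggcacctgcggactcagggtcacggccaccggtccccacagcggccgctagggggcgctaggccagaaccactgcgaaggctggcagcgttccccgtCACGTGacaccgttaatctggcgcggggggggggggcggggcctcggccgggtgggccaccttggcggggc

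Counted from the start site, the CDX letters lay at -43 to -38 in Sis and, on the opposite strand, at -31 to -26 in Lct, and 11.9% of 32851 RefSeq promoter windows of 300 bases hold them. Lct held the GATA letters at -101 to -96 and at -90 to -85, and Mgam held them at -208 to -203 and -66 to -61, against 11.2% of windows with a match. The E-box letters lay in Khk, Mgam and Slc5a1, against 7.15% of windows. Treh had the only match to CAAAGTCCA, an HNF4 motif present in 0.475% of windows. Slc2a2 and Slc2a5 had no match to any of these letters in this window, and no motif shown here overlaps another. The matches describe letters only, not binding.

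Among the transporters that bring sugar into the cell, Slc5a1 had 1325, 1714 and 1289 CPM in Ogt knockout libraries, against 803, 2728 and 2100 CPM in control libraries. The knockout libraries lay between control 1 and the other controls (fold change -0.38 ± 0.41, adjusted p = 0.556). Slc2a5 had 35.7, 51.1 and 34.9 CPM in Ogt knockout libraries, against 20.0, 94.7 and 63.1 CPM in control libraries. Its knockout libraries likewise lay between control 1 and the other controls (fold change -0.55 ± 0.53, adjusted p = 0.516).

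Slc2a2, the basolateral exit path, had the fold change farthest from 0 of the 8 genes. It had 7.26, 11.2 and 3.23 CPM in Ogt knockout libraries, against 6.64, 87.9 and 50.4 CPM in control libraries. Controls 2 and 3 stood well above every knockout library, while control 1 lay among them, and the fold change of -2.74 ± 0.94 did not pass (adjusted p = 0.0975). Its counts ranged from 61 to 202 in Ogt knockout libraries and from 109 to 1450 in control libraries.

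Khk, the first enzyme of fructose breakdown, had 144, 200 and 171 CPM in Ogt knockout libraries, against 84.7, 145 and 104 CPM in control libraries. Knockout libraries 2 and 3 stood above every control, and knockout 1 lay just under control 2. The fold change of 0.63 ± 0.21 had the smallest adjusted p of the 8 genes and did not pass (adjusted p = 0.0763).

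Control 1 had the lowest level of the 3 controls for all 8 genes, while the same library was the lowest control for 37.8% of all tested genes. The spread between controls was correspondingly wide. The SD of log2 CPM had a median over the 8 genes of 0.26 in Ogt knockout and 0.87 in control libraries, against medians of 0.18 in Ogt knockout and 0.22 in control libraries over all tested genes. Without control 1, 5 genes passed the test, all lower in Ogt knockout, where 9.63% of all tested genes were lower. These were Sis (-0.94 ± 0.15, adjusted p = 0.00593), Mgam (-0.73 ± 0.15, adjusted p = 0.0118), Slc5a1 (-0.70 ± 0.17, adjusted p = 0.0228), Slc2a2 (-3.21 ± 0.55, adjusted p = 0.0207) and Slc2a5 (-0.91 ± 0.23, adjusted p = 0.0358). Since control 1 was the lowest control for each of them, leaving it out moves these fold changes down by construction. The SE of each also shrank, for Sis from 0.34 to 0.15 and for Slc5a1 from 0.41 to 0.17. These adjusted p-values are therefore not separate evidence. Treh then turned to -0.16 ± 0.17.

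Without control 2, no gene passed as lower, where 5.5% of all tested genes were lower. Khk passed as higher (0.90 ± 0.17, adjusted p = 0.0209), where 6.37% of all tested genes were higher. Slc5a1 then stood at 0.03 ± 0.39 and Slc2a5 at 0.00 ± 0.49. Control 2 was the highest control for Khk, Slc5a1 and Slc2a5, so leaving it out moves these fold changes up by construction. Leaving out control 3 or any 1 knockout library gave no call for any of the 8, with Sis at -0.26 without control 3. These fits also called fewer of all tested genes, between 7.12% and 11.6%, against 18.7% with all libraries. The fold change of Slc2a2 stayed negative without each library in turn, between -3.22 and -1.94, and that of Khk stayed positive, between 0.50 and 0.90.

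**Figure D2:**
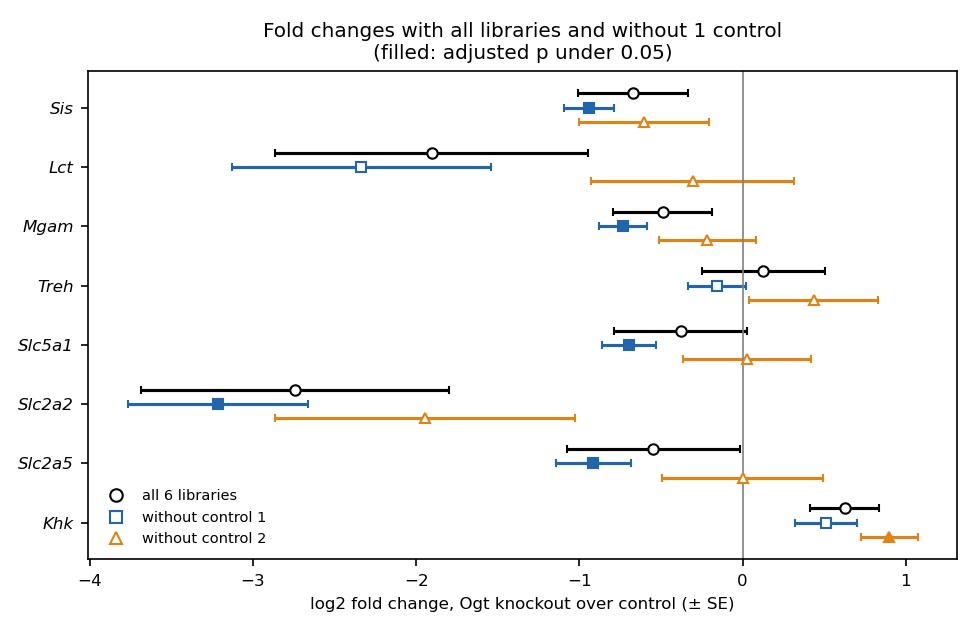
Log2 fold change of Ogt knockout over control (horizontal axis, ± SE) for the 8 genes with all 6 libraries, without control 1 and without control 2; filled symbols have an adjusted p under 0.05. No gene is filled with all libraries, 5 are filled and negative without control 1, and Khk is filled and positive without control 2.

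Marker lists moved with these libraries, and their part in the values above was not tested. Relative to the mean of the 6 libraries, the median of 7 villus tip genes was 1.21 log2 units in control 1, 0.12 in control 2 and 0.63 in control 3, and lay between -0.69 and -0.32 in Ogt knockout libraries. Nt5e, a villus tip ectonucleotidase, had 34.6, 23.0 and 15.6 CPM in Ogt knockout libraries, against 325, 69.4 and 82.6 CPM in control libraries. Control 1, lowest in sugar genes, was thus highest in this tip gene. Summed FPKM of the tip list ran from 730 to 1075 in Ogt knockout and from 615 to 1963 in control libraries, and 4 of its 7 genes fell (Nt5e, Slc28a2, Klf4 and Creb3l3). Leaving out 1 library ended at least 1 of these 4 calls in every case: 3 were left without control 1 (Slc28a2 at adjusted p = 0.117), 2 without control 2, 1 without control 3 or knockout 1, and 0 without knockout 2 or 3. The proximal region list, with 2 of 4 tested genes lower, had medians of -0.24, -0.75 and -0.42 log2 units in Ogt knockout libraries 1 to 3, against -0.14, 0.74 and 0.93 in control libraries 1 to 3. The 8 sugar genes had medians of -0.23, 0.07 and -0.28 in Ogt knockout libraries, against -0.92, 0.75 and 0.46 in control libraries. Both sets were lower in control 1 than in the other controls. Control 1 lay below every Ogt knockout library for the sugar genes, but above every one for the proximal list. Summed FPKM of the 12 enterocyte genes ran from 14402 to 17277 in Ogt knockout and from 16342 to 21149 in control libraries, with 3 of 12 lower (7 of 12 without control 1), and control 1 held the lowest control sum.

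Control 2, the highest control for 7 of the 8 genes, was the library lowest in crypt genes. The proliferation list stood at -0.94 log2 units there and the Paneth cell list at -2.32, with summed Paneth FPKM of 1361 to 3833 in Ogt knockout and 252 to 2616 in control libraries. Of the proliferation genes 1 of 8 rose, 2 rose without control 1 and 0 without any other single library, with sums of 172 to 245 FPKM in Ogt knockout and 99.0 to 175 FPKM in control libraries. None of 6 Paneth, 5 stem cell or 7 villus bottom genes passed the test, but 3 villus bottom genes passed as higher without control 2. Goblet sums ran from 2983 to 4688 FPKM in Ogt knockout and from 4129 to 9555 FPKM in control libraries. Of the goblet genes 2 of 6 were lower, and between 0 and 2 were lower without each library in turn. Without control 1, the goblet gene Agr2 passed as higher (0.95 ± 0.22, adjusted p = 0.0227) beside 2 that were lower. Tuft cell sums ran from 4.88 to 5.36 FPKM in Ogt knockout and from 25.2 to 28.8 FPKM in control libraries, with 5 of 5 genes lower, also without each library in turn. Enteroendocrine sums ran from 122 to 140 FPKM in Ogt knockout and from 61.6 to 91.2 FPKM in control libraries, with 1 of 6 genes higher, 2 without control 1 and 0 without any other single library. In the whole lists, no marker of these epithelial types was at 0 in all libraries.

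**Figure D3:**
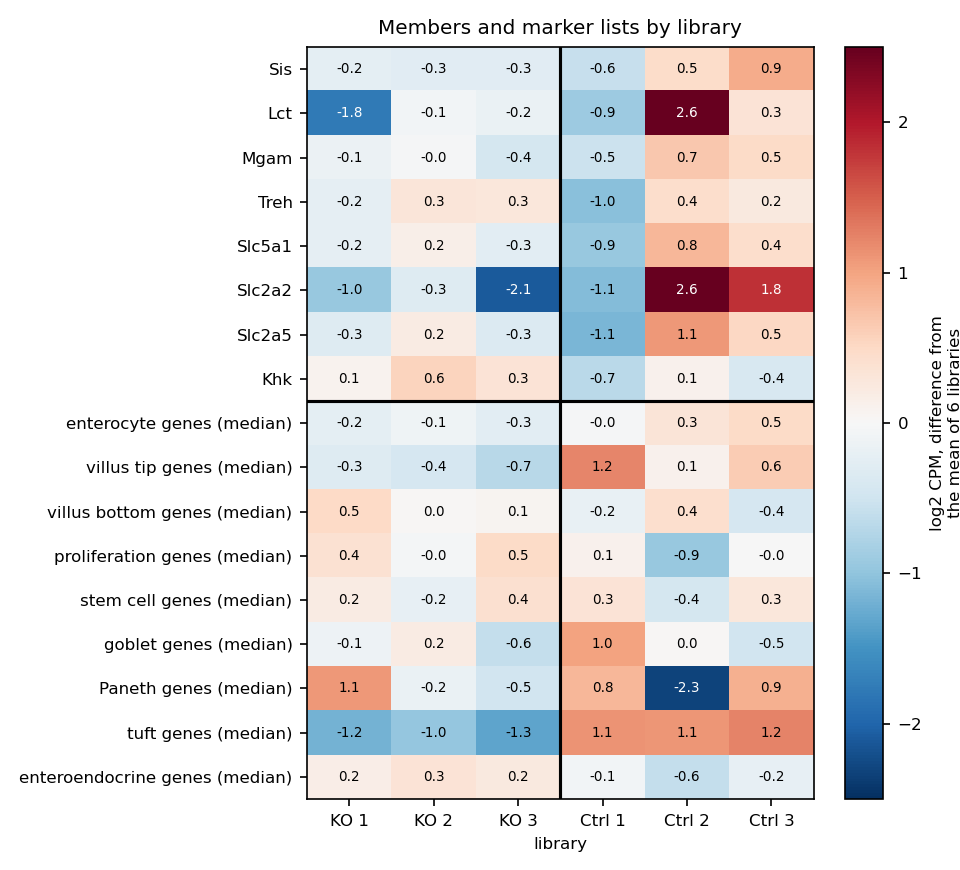
Log2 CPM relative to the mean of the 6 libraries (colour and printed values) for the 8 genes, one row each, and for the median of 9 marker lists, in Ogt knockout libraries 1 to 3 (left) and control libraries 1 to 3 (right). Control 1 is negative for all 8 genes and reaches 1.2 for villus tip genes, and control 2 is positive for all 8 genes and reaches -2.3 for Paneth genes.

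Ratios between genes with related roles were taken within a library, so that its scaling factor nearly cancels. Of 6 ratios compared, 2 separated the groups without overlap. The share of other gene pairs whose ratios do so was not computed. For single genes, the CPM ranges of 39.8% of all tested genes did not overlap. The log2 ratio of Slc2a2 to Slc5a1 was -7.49, -7.24 and -8.59 in Ogt knockout libraries, against -6.89, -4.95 and -5.38 in control libraries, a difference of -2.03. In counts, GLUT2 transcripts were thus lower relative to SGLT1 transcripts in every Ogt knockout library than in any control, control 1 included. In the deposited FPKM control 1 was only slightly above knockout 1 in this ratio. Slc2a2 and Slc5a1 had 1.22 and 192 FPKM in control 1, against 1.99 and 325 FPKM in knockout 1. The log2 ratio of Treh to Sis was -5.12, -4.57 and -4.57 in Ogt knockout libraries, against -5.61, -5.16 and -5.83 in control libraries, a difference of 0.78. For both, the exact two-sided permutation test gave p = 0.1, the smallest p that 3 libraries against 3 allow (adjusted p = 0.3 over the 6 ratios), so neither can pass a threshold of 0.05.

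The ratio of Slc2a5 to Slc5a1 had the smallest difference of the 6, with a mean of -5.16 ± 0.08 log2 units in Ogt knockout and -5.07 ± 0.24 in control libraries (SD, n = 3; difference -0.09, exact permutation p = 0.6). The ratio of Khk to Slc2a5 was 2.01, 1.97 and 2.29 in Ogt knockout libraries, against 2.08, 0.62 and 0.71 in control libraries. Control 1 lay among the knockout libraries for this ratio (difference 0.95, exact permutation p = 0.3). Mgam to Sis differed by 0.13 and Lct to Sis by -0.79 (exact permutation p = 0.6 for each). The adjusted p was 0.6 for each of these 4 ratios.

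**Figure D4:**
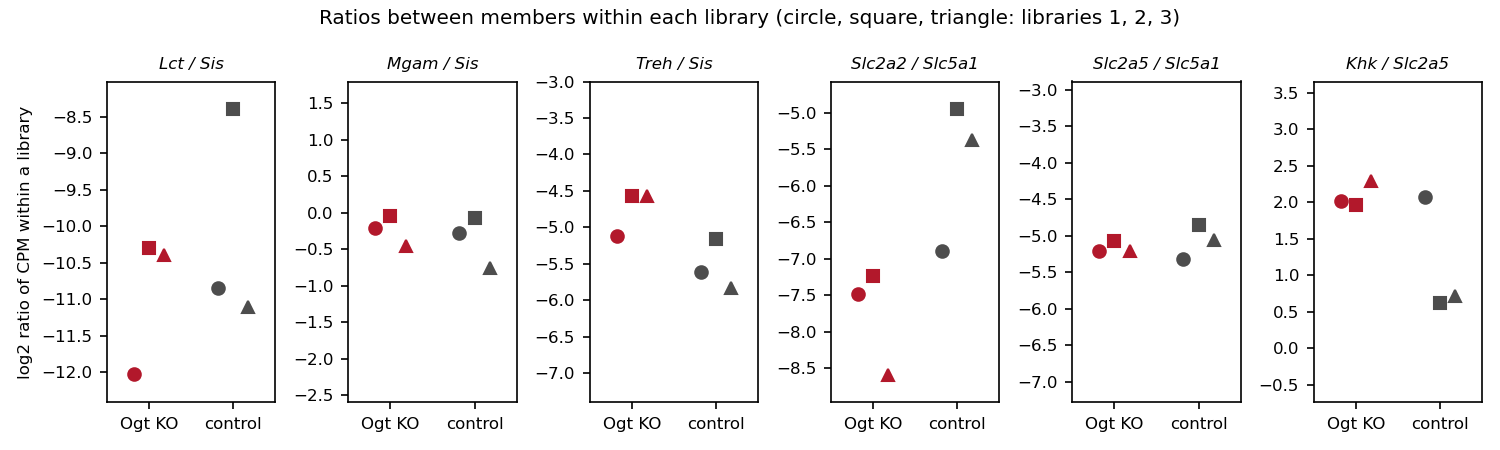
Log2 ratio of CPM between 2 genes of the same library (vertical axis, the same span in each panel) for 6 pairs, in Ogt knockout (red, left) and control libraries (grey, right); circles, squares and triangles are libraries 1, 2 and 3. The groups separate for Treh to Sis and for Slc2a2 to Slc5a1, and overlap for the other 4 pairs.

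Across the 6 libraries, Slc5a1 and Slc2a5 had the most similar profiles of any pair among the 8 genes, with a root mean square distance of 0.15 log2 units between centred profiles. Slc2a2 and Khk were the least similar pair, at 1.79. Among 4952 other genes whose log2 CPM averaged 5 or more, the brush border peptidase genes Dpp4 (0.11) and Enpep (0.13) were among the 3 closest to Sis. Their fold changes were -0.71 ± 0.32 and -0.68 ± 0.28. Closest to Khk were Slc25a15, a mitochondrial ornithine carrier (0.06), Isoc1 (0.07) and Smpd2, a neutral sphingomyelinase (0.09). Their fold changes were 0.69 ± 0.21, 0.59 ± 0.17 and 0.69 ± 0.19. These genes were chosen for their likeness over the same 6 libraries, so their fold changes are descriptions, with no test.

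Related sugar genes were taken from 8 lists, of which 68 of 76 genes could be tested. Of the 68, 3 rose and 10 fell, a share of 19.1% that is near the 18.7% over all tested genes, and the median fold change was -0.10. None of 15 tested genes of other hexose transporters and none of 4 other glycosidases passed the test, with medians of -0.22 and -0.38, against -0.05 over all tested genes. Slc2a9, the transporter of highest mean FPKM among them, stood at 0.06 ± 0.16, and Ganab, an endoplasmic reticulum glucosidase and the most abundant glycosidase, at -0.01 ± 0.10. None of 4 hexokinases and related genes passed (median -0.07), with Hkdc1, the most abundant, at -0.45 ± 0.17 (adjusted p = 0.0954).

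In the list of fructose metabolism and glucose release, 1 of 10 genes rose and 1 fell (median -0.13). G6pc, the catalytic subunit of glucose-6-phosphatase that releases free glucose, fell to 1.80, 1.67 and 1.38 CPM in Ogt knockout libraries, against 12.5, 14.6 and 3.88 CPM in control libraries (-2.68 ± 0.49, adjusted p = 0.0114). The groups did not overlap, and control 3 lay closest to the knockout libraries. G6pc3, the broadly expressed form, rose (0.57 ± 0.15, adjusted p = 0.0363). Tkfc, which phosphorylates the glyceraldehyde formed from fructose, stood at 0.02 ± 0.24, and its counts were not whole in every library. The calls ended for G6pc without knockout 2 or 3 (adjusted p up to 0.0588) and for G6pc3 without any single library except control 1 (adjusted p up to 0.125).

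In the galactose pathway 2 of 8 genes rose and 1 fell (median 0.24). Galk1, the galactokinase, rose to 16.8 ± 1.17 CPM in Ogt knockout libraries, against 9.47 ± 2.15 CPM in control libraries (SD, n = 3; 0.82 ± 0.18, adjusted p = 0.0201). Pgm1, a phosphoglucomutase, fell (-0.45 ± 0.13, adjusted p = 0.0420). Galk1 lost its call without any single library except control 1 (adjusted p up to 0.0805), and Pgm1 without any single library except control 2 (adjusted p up to 0.166). Pgm1 also did not pass with library size alone (-0.32, adjusted p = 0.0973) or with limma on log2(FPKM + 0.1) (-0.31, adjusted p = 0.119).

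Among 7 tested genes of sugar-responsive regulation and sweet taste sensing, 3 fell and none rose (median -0.30). Txnip, an arrestin-family inhibitor of glucose uptake whose transcription responds to glucose, fell to 199, 275 and 222 CPM in Ogt knockout libraries, against 427, 703 and 538 CPM in control libraries (-1.26 ± 0.20, adjusted p = 0.00679). Every knockout library lay below every control. Its relative Arrdc4 fell (-0.92 ± 0.16, adjusted p = 0.00811), with 24.7, 21.2 and 22.0 CPM in Ogt knockout libraries, against 50.2, 43.7 and 34.2 CPM in control libraries. Both calls held without each library in turn. In the deposited FPKM, however, Arrdc4 had 8.77, 7.33 and 9.61 in Ogt knockout libraries, against 13.1, 11.1 and 8.54 in control libraries. Those groups overlapped, and limma on log2(FPKM + 0.1) gave -0.33 with adjusted p = 0.248, so the call rests on the counts. Mlxipl, which encodes the carbohydrate-responsive factor ChREBP, stood at 0.08 ± 0.14. Gnat3, the taste G protein subunit that tuft cells also express, fell (-2.70 ± 0.49, adjusted p = 0.00987). It had 0.246 ± 0.155 CPM in Ogt knockout and 1.58 ± 0.263 CPM in control libraries (SD, n = 3), and its call ended without knockout 3 (adjusted p = 0.0530). The tuft cell list fell in the same libraries, as given above, and its part in the value of Gnat3 was not tested.

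Of 10 intestinal transcription factors 4 fell and none rose (median -0.17). Hnf4g fell to 234, 228 and 288 CPM in Ogt knockout libraries, against 418, 417 and 471 CPM in control libraries (-0.80 ± 0.13, adjusted p = 0.00667), and Hnf4a, the most abundant of the list, stood at -0.27 ± 0.13 (adjusted p = 0.198). Cdx2 fell to 108, 102 and 87.6 CPM in Ogt knockout libraries, against 147, 141 and 143 CPM in control libraries (-0.53 ± 0.11, adjusted p = 0.0148), and Gata6 fell (-0.66 ± 0.13, adjusted p = 0.0143). For Hnf4g, Cdx2 and Gata6 control 1 stood with the other controls. Without knockout 2, knockout 3 or control 3 the calls ended for Cdx2 (adjusted p up to 0.0584) and Gata6 (adjusted p up to 0.0637).

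Of 10 genes of the sodium gradient and its scaffold, 1 fell (median 0.13). Sgk1, a kinase that regulates ion and nutrient transporters, fell to 112, 120 and 133 CPM in Ogt knockout libraries, against 369, 296 and 359 CPM in control libraries (-1.48 ± 0.13, adjusted p = 0.00136), and the call held without each library in turn.

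**Figure D5:**
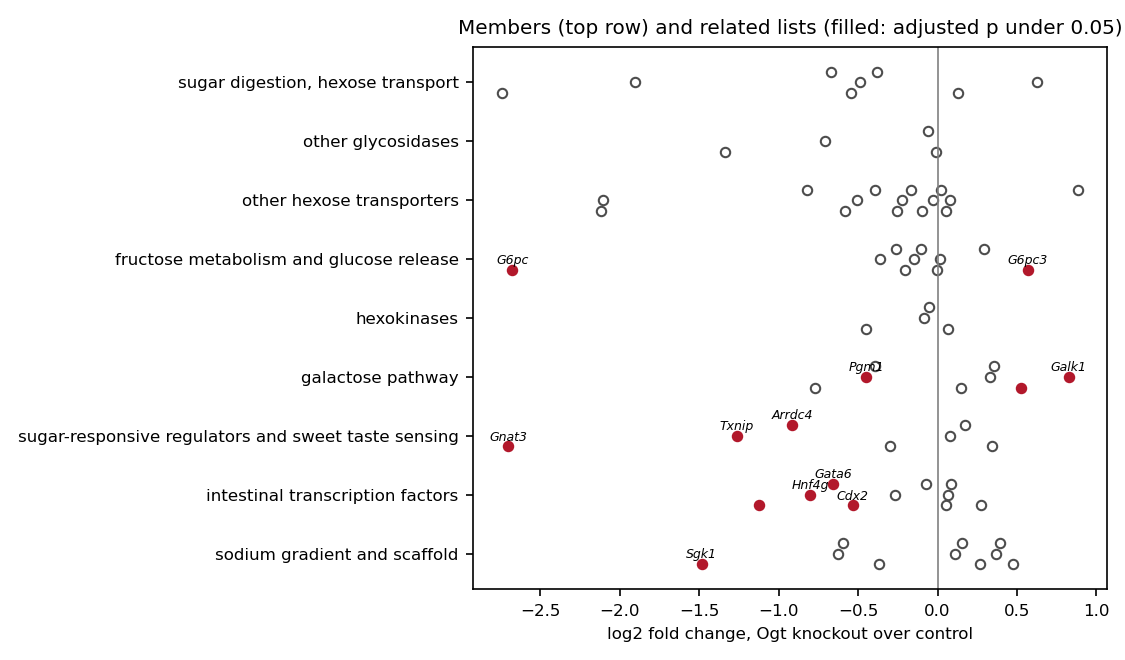
Log2 fold change of Ogt knockout over control (horizontal axis) for the 8 genes, in the top row, and for 8 lists of related genes, one point per tested gene; filled points have an adjusted p under 0.05, and those described in the text are named. No point is filled in the top row, and 13 are filled in the other rows, 10 of them negative.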

How the data were processed

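The authors deposited estimated counts (expected counts) and FPKM per gene and library, per the file headers. Total RNA was extracted with Trizol and NEBNext Ultra RNA libraries were made, per the labels' protocols. Builds GRCm39 and mm39 are named in the submitters' processing notes; the sources used here do not give the aligner, counter, annotation or gene lengths. The deposited FPKM values are scaled for length and library total.

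Estimated counts were rounded. Genes were named by Ensembl ID from a reference table (22219 IDs; 43 from the deposited table, 12 unnamed), since the deposited symbols give Sis and Mgam in other forms. Genes kept by filterByExpr (minimum count 10, minimum total 15) were fitted in edgeR 4.0.16 (R 4.3.3) with TMM factors, the robust quasi-likelihood test and Benjamini-Hochberg adjustment over all 14005 tested genes. The SE comes from the F statistic. Log2 CPM uses a prior count of 2. Alternatives were other scalings and filters, a replicate block, leaving out each library, and DESeq2 1.42.0 and limma 3.58.1 (voom, and log2 FPKM). Promoter sequences are RefSeq's, build GRCm38.p6, with all 8 genes matched by symbol. Figures were drawn with matplotlib 3.10.9.

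Members and lists were chosen with earlier results of these data known. The rule for other named genes takes, per list of related genes, up to 5 genes past the threshold and the gene of highest mean FPKM, plus the 3 nearest profiles to Sis (highest FPKM) and Khk (smallest adjusted p), and the gene of highest mean FPKM of each of 15 cell marker lists; Slc5a4a, Slc5a4b, Slc5a11, Slc2a1, Mlxipl, Tkfc and Nt5e were chosen after their values were seen. Some genes the rule selects are not reported here. Of the list members, 3 were matched through a synonym and 1 had no match.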

Additional observations from a re-analysis of the deposited data

How the results depend on the processing

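Of 86 fold changes of the 8 genes under alternatives other than leaving out a library, 79 kept their direction and their side of the threshold and 7 gained a call. Khk passed with library size alone (0.77), DESeq2 (0.65), and limma on log2(FPKM + 0.1) (0.82; 0.82 without a filter) and log2(FPKM + 1) (0.81), and Slc2a2 with DESeq2 (-2.72). Lct fell under the FPKM filter and has no value in the 2 filtered FPKM fits. With library size alone the all-gene median was 0.09, against -0.05 with TMM factors. That scaling called 2045 genes higher and 859 lower, against 1307 and 1312 in the reported fit. The FPKM fits likewise called more genes higher than lower. Shares were 15.9% and 6.02% with log2(FPKM + 0.1), and 16.3% and 6.14% with log2(FPKM + 1). Without a filter they were 8.95% and 3.5%. All-gene medians were 0.12, 0.10 and 0.07 in the same order. Libraries with the same replicate number had deviations correlated at 0.27, 0.25 and 0.08, so the numbers were not taken to pair them, although each library correlated best with its own number; with the replicate as a block Khk passed (0.65) and 3402 genes changed, with 5 of the galactose and 2 of the sodium gradient list. Counts in lists moved to 1 (other hexose transporters, at least 1 CPM in 3 libraries), 1 (other glycosidases, DESeq2), 2 (other hexose transporters, DESeq2), 5 (galactose, DESeq2), 3 (sodium gradient, library size alone) and 2 (sodium gradient, each FPKM fit). Without each library in turn, log2 fold changes ranged from -0.94 to -0.26 for Sis, -0.73 to -0.22 for Mgam, -0.16 to 0.44 for Treh, -2.34 to -0.30 for Lct, -0.70 to 0.027 for Slc5a1, -0.91 to 0.00015 for Slc2a5, -3.22 to -1.94 for Slc2a2 and 0.50 to 0.90 for Khk. Over those 48 values, 6 gained a call and 3 changed sign: Treh without control 1 (-0.16), and Slc5a1 (0.027) and Slc2a5 (0.00015) without control 2. The ratio differences ranged from -1.29 to 0.066 for Lct to Sis (0.066 without control 2), -0.063 to 0.28 for Mgam to Sis (-0.063 without control 3), -0.21 to 0.027 for Slc2a5 to Slc5a1 (0.027 without control 2), -2.61 to -1.62 for Slc2a2 to Slc5a1, 0.63 to 0.97 for Treh to Sis and 0.69 to 1.42 for Khk to Slc2a5. The count of changed genes ranged from 1009 to 3304, and in lists from 0 to 4 (fructose and glucose release), 0 to 3 (galactose), 0 to 1 (hexokinases), 2 to 4 (transcription factors), 0 to 4 (other hexose transporters) and 1 to 4 (sodium gradient). The cause was not tested. With 3 libraries a group, 8 to 220 counts limit the precision of Lct.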

Other observations

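Sodium-coupled transporters related to SGLT1 were chosen for a description after their values were seen. Slc5a4a, a member of the SGLT3 group, had 4.22, 6.11 and 3.33 CPM in Ogt knockout libraries, against 4.02, 29.6 and 25.3 CPM in control libraries (-2.11 ± 0.71, adjusted p = 0.0929). The closely related Slc5a4b had 6.22, 11.3 and 6.98 CPM in Ogt knockout libraries, against 5.05, 19.9 and 18.4 CPM in control libraries (-0.82 ± 0.51, adjusted p = 0.303). Slc5a11, a sodium-coupled inositol transporter, had 5.60, 8.72 and 2.54 CPM in Ogt knockout libraries, against 8.58, 41.8 and 22.8 CPM in control libraries (-2.12 ± 0.68, adjusted p = 0.0812). In all 3, control 1, the lowest control, stood near the knockout libraries, as for Slc2a2. Leaving it out therefore lowers the fold change of all 3 by construction. Without it they stood at -2.54, -1.18 and -2.48 (adjusted p = 0.00141, 0.0154 and 0.0303). Slc2a1, the GLUT1 transporter, ran the other way in that library, with 24.3, 18.7 and 19.3 CPM in Ogt knockout libraries, against 44.7, 13.2 and 14.7 CPM in control libraries (-0.22 ± 0.48, adjusted p = 0.780). Control 1 was its highest control, and without it Slc2a1 stood at 0.62 ± 0.16 (adjusted p = 0.0315), a change that is likewise by construction.

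Counts and FPKM of Slc2a2 did not move in step. The ratio of count to FPKM was scaled by the median ratio of each library. It differed 1.47-fold between the lowest library, knockout 1, and the highest, control 2. Of genes with at least 100 counts in every library, 2.48% had a wider ratio. Slc2a2 itself lies outside that set, with 61 counts in knockout 3. For Mgam the ratio differed 1.23-fold. The median over genes was 1.03-fold. The lengths behind the deposited FPKM were not analysed here.

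Markers of cells outside the epithelium did not separate the groups in sum. Summed FPKM of 7 immune markers ran from 105 to 186 in Ogt knockout and from 171 to 192 in control libraries, with none called. Sums of 6 stromal markers ran from 142 to 189 FPKM in Ogt knockout and from 109 to 155 FPKM in control libraries, with 2 higher (0 without knockout 3, 3 without control 2, and 2 higher with 1 lower without control 1). Sums of 5 muscle markers ran from 359 to 828 FPKM in Ogt knockout and from 284 to 601 FPKM in control libraries, with 1 higher; without control 1 none was higher and 2 were lower (Des at -1.22, adjusted p = 0.00276, and Tagln at -0.83, adjusted p = 0.00676). Of 6 pancreatic acinar markers only 1 had enough counts to be tested, and 1 was at 0 in all libraries. Of the regional lists, 1 of 4 ileal genes fell, with sums of 7102 to 8915 FPKM in Ogt knockout and 7999 to 8529 FPKM in control libraries, and 2 of 4 tested proximal genes fell (2 without control 1 and 1 without any other single library), with sums of 8.40 to 12.9 FPKM in Ogt knockout and 26.8 to 36.1 FPKM in control libraries.

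The most abundant gene of each marker list moved as follows (edgeR, adjusted over all genes). Rgs13 of tuft cells fell to 2.93 ± 0.504 CPM in Ogt knockout libraries, against 20.9 ± 2.43 CPM in control libraries (SD, n = 3; -2.84 ± 0.19, adjusted p = 0.00109). Slc40a1, the iron exporter in the proximal list, fell (-2.21 ± 0.31, adjusted p = 0.00567), as did Zg16 of goblet cells (-1.40 ± 0.32, adjusted p = 0.0240). Sct, the secretin gene of enteroendocrine cells, rose (0.74 ± 0.21, adjusted p = 0.0453). Acta1, the skeletal muscle actin, rose to 415 ± 218 CPM in Ogt knockout libraries, against 35.0 ± 21.7 CPM in control libraries (3.57 ± 0.68, adjusted p = 0.0193). Its call ended without control 1 (adjusted p = 0.0612), control 2 (0.0670) or knockout 2 (0.0723). The call of Sct held without control 1 and ended without any other single library (adjusted p up to 0.141), and that of Zg16 ended without control 2, knockout 1 or knockout 3 (adjusted p up to 0.0875). Those of Rgs13 and Slc40a1 held without each library. The test was not passed by Apoa1 of enterocytes (-0.21 ± 0.18), Apoa4 of the villus tip (0.10 ± 0.66), Reg3b of the villus bottom (0.62 ± 0.51), Fabp6 of the ileum (-0.18 ± 0.15), Pcna of proliferation (0.02 ± 0.14), Olfm4 of stem cells (0.49 ± 0.76), Defa24 of Paneth cells (0.43 ± 0.94), Lyz2 of immune cells (-0.30 ± 0.14), Dcn of stroma (0.09 ± 0.22) or Cela1 of acinar cells (-0.43 ± 0.29).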
